A study of Chlorocebus aethiops with 12 samples.

Results

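MDFIC, its paralogue MDFI and 6 genes of the P-TEFb complex were followed on 12 one-colour arrays. They were chosen by accession: every non-control probe whose deposited accession was one of 9 listed for these genes was taken. Of those accessions 8 were found, which gave 8 genes and 15 probes among 41000 probes in all. Symbols are those given with the accessions when the genes were chosen, since the array files give none. All 15 probes were well above background on all 12 arrays, none was saturated or marked as an outlier, and all passed the filter that left 30179 probes for testing.

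The arrays measured total RNA of COS-1, an African green monkey kidney line with fibroblast-like morphology. All groups were transfected with the glucocorticoid receptor (GR), a hormone-activated transcription factor, and the GR+MDFIC groups also with MDFIC. From 48 h after transfection the cells received vehicle or 100 nM dexamethasone (Dex), a synthetic glucocorticoid, for 6 h. The groups, GR vehicle, GR Dex, GR+MDFIC vehicle and GR+MDFIC Dex, held 3 biological replicates each. Every group therefore carried transfected GR, and none was left untransfected. The share of cells that took up the constructs, their promoters and the species of the MDFIC sequence are not given in the sources used here. The study asked whether MDFIC alters the response of GR to Dex. The probes were designed for human transcripts, and how well each one matches the monkey transcript was not tested. In bulk RNA, fewer cells with a transcript and less of it per cell cannot be told apart.

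P-TEFb is the kinase that releases RNA polymerase II from its pause near the start of genes. Its catalytic subunit is CDK9, and cyclin T1 (CCNT1) or cyclin T2 (CCNT2) activates it. Much of it is held inactive on the 7SK RNA, which LARP7 protects and on which HEXIM1 or HEXIM2 inhibits the kinase. MDFI is known for holding myogenic factors such as MyoD inactive, and MDFIC shares its cysteine-rich carboxy-terminal domain and is known to bind cyclin T1 and GR.

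The share of the 43376 non-control spots well above background was 70.3% to 75.2% per array, and replicates of a group correlated at 0.981 to 0.995 over the tested probes. The arrays lay on 3 slides. Slide 1 held GR vehicle and 1 GR Dex array, slide 2 held the other 2 GR Dex arrays and 2 GR+MDFIC vehicle arrays, and slide 3, read on another scanner, held 1 GR+MDFIC vehicle array and GR+MDFIC Dex. The 75th percentile of the processed signal was 365 to 414 on slide 3 and 758 to 948 on slides 1 and 2. No slide held both arms of an MDFIC comparison, so MDFIC differences are also given with slide as a fixed block, which links the slides through the groups they share. Of the markers on the arrays, 5 of 6 for fibroblasts (VIM among them, but COL1A2 on no array), 5 of 5 for kidney epithelium and 5 of 5 for epithelium in general were above background on every array. For blood it was 2 of 4 (CD3E and CD14), with PTPRC on no array, and for endothelium 1 of 3 (VWF), with PECAM1 on no array. The accession chosen to check the transfected receptor was not among those of the arrays, and that check was not used here.

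Levels below are log2 of the processed signal minus the array's 75th percentile, so that 0 is the level below which 75% of an array's spots lie. Levels of different probes are not compared, since each probe has its own brightness. Differences are on the log2 scale, and a probe is called where limma's Benjamini-Hochberg adjusted p over all 30179 probes is under 0.05.

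The transfected gene showed a larger MDFIC difference than any other probe tested, and it did so on 1 of its 2 probes. On MDFIC (NM_199072) probe A_32_P120567 the GR vehicle arrays read -3.30, -3.18 and -3.22 and the GR Dex arrays -3.46, -3.20 and -3.27. The GR+MDFIC vehicle arrays read 5.65, 5.53 and 5.86, and the GR+MDFIC Dex arrays 5.11, 4.88 and 5.28. All 6 GR+MDFIC arrays therefore lay above all 6 GR arrays, with no overlap. The MDFIC difference was 8.91 ± 0.12 in vehicle (SE, limma, 481-fold, adjusted p = 3.80e-10) and 8.40 ± 0.12 in Dex (SE, limma, 339-fold, adjusted p = 6.62e-10). It ranked 1 of 30179 probes by size in both. The slide block gave 8.60 and 8.06, and on slide 2 alone the GR+MDFIC vehicle arrays lay 8.83 above the GR Dex arrays.

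**Figure D1:**
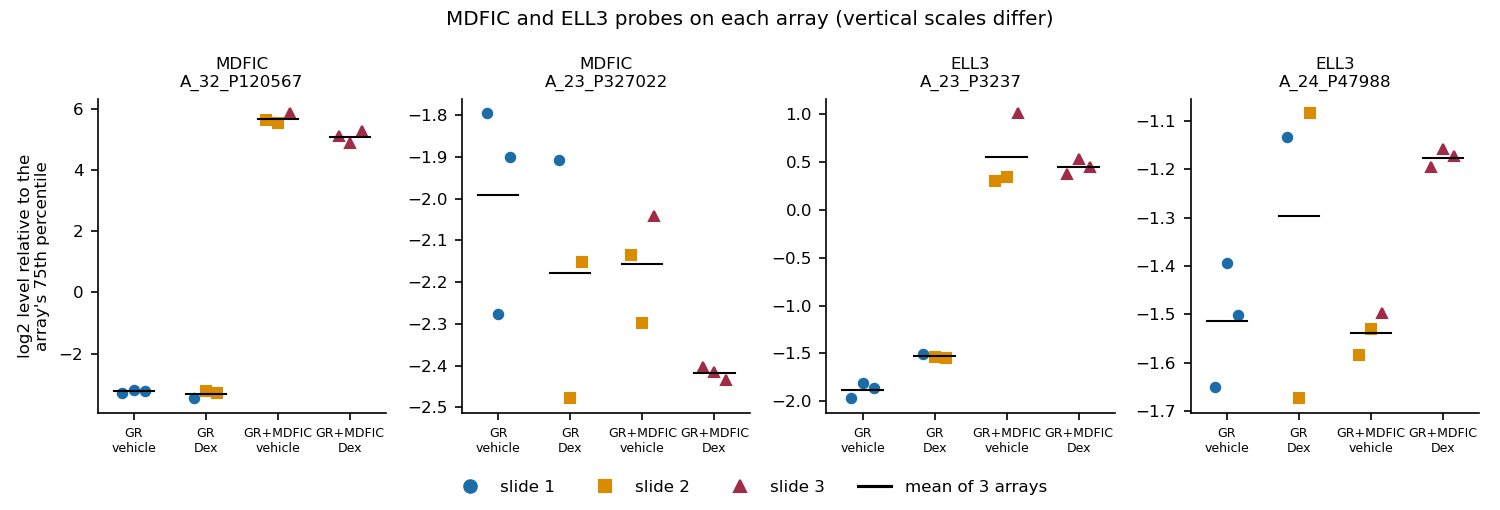
Level of 2 probes each of MDFIC and ELL3 on every array (vertical axis, log2 level, 0 at the array's 75th percentile; scales differ between panels) by group (horizontal axis), with symbols for the slide and a line at the mean of 3 arrays. MDFIC probe A_32_P120567 lies at -3.46 to -3.18 on the GR arrays and at 4.88 to 5.86 on the GR+MDFIC arrays, while MDFIC probe A_23_P327022 shows no such step.

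The second MDFIC probe did not follow. A_23_P327022 read -1.80, -2.28 and -1.90 in GR vehicle, -1.91, -2.48 and -2.15 in GR Dex, -2.13, -2.30 and -2.04 in GR+MDFIC vehicle, and -2.40, -2.42 and -2.43 in GR+MDFIC Dex. The vehicle groups overlapped, and so did the Dex groups. Its MDFIC difference was -0.17 in vehicle (95% interval -0.51 to 0.18) and -0.24 in Dex (-0.59 to 0.11), and neither was called. With slide as a block they were 0.18, where the sign turned, and -0.28. The files give no probe sequence, so which stretch of the transcript each probe reads was not tested.

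The bright MDFIC probe fell with Dex in cells that had received MDFIC; whether it reads RNA of the construct or of the cells' own gene was not tested. In GR+MDFIC cells A_32_P120567 fell by 0.59 ± 0.12 with Dex on the log2 scale (SE, limma, 1.5-fold, adjusted p = 0.0105), and every Dex array lay below every vehicle array. Within slide 3, against its single vehicle array, the difference was -0.76. Over 26 alternatives it stayed between -0.76 and -0.48 and was called in 24. Calls were lost where only the compared groups were fitted and at a threshold of 0.01. In GR cells, where this probe was dim, the difference was -0.08 (95% interval -0.34 to 0.18). The test of the difference between the 2 Dex effects gave -0.51 and did not pass (limma, adjusted p = 0.518). The lower MDFIC signal in GR+MDFIC Dex than in GR+MDFIC vehicle stands beside each MDFIC comparison made in Dex, and its part in those results was not tested.

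MDFI (NM_005586), the paralogue, was called in none of the comparisons. Its probe read -3.36, -3.68 and -3.67 in GR vehicle, -3.58, -3.59 and -3.63 in GR Dex, -3.57, -3.32 and -3.30 in GR+MDFIC vehicle and -3.40, -3.40 and -3.42 in GR+MDFIC Dex. The 3 GR+MDFIC Dex arrays lay above the 3 GR Dex arrays, by 0.19 (limma, 95% interval -0.02 to 0.41, adjusted p = 0.253), and by 0.055 with slide as a block.

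Among the 15 probes, 1 was called with Dex in GR cells, against 6.75% of all probes tested, and 2 with Dex in GR+MDFIC cells, against 12.9%. All 3 of these calls were falls, where 2.6% and 6.65% of all probes fell, and 1 of the 2 in GR+MDFIC cells was the bright MDFIC probe. MDFIC gave 1 call in vehicle and 1 in Dex, both the bright MDFIC probe and both higher, against 0.775% and 4.83% called in all and 0.53% and 2.37% called higher. None was called in the test of whether MDFIC changed the Dex effect, against 0.053% of all probes. In that test 2 of the 15 had an unadjusted p under 0.05, against 9.43% of all probes. The median difference of the 15 probes was -0.08 and -0.10 for the Dex effects and 0.016 and -0.07 for the MDFIC effects, in vehicle and Dex. Over all probes the medians were 0.0095, -0.0056, 0.00078 and -0.0047. Groups did not overlap for 4, 8, 5 and 6 of the 15 probes in these 4 comparisons, against 25.8%, 31.9%, 21.8% and 31% of all probes. With Dex the share of members called was thus near the background.

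**Figure D2:**
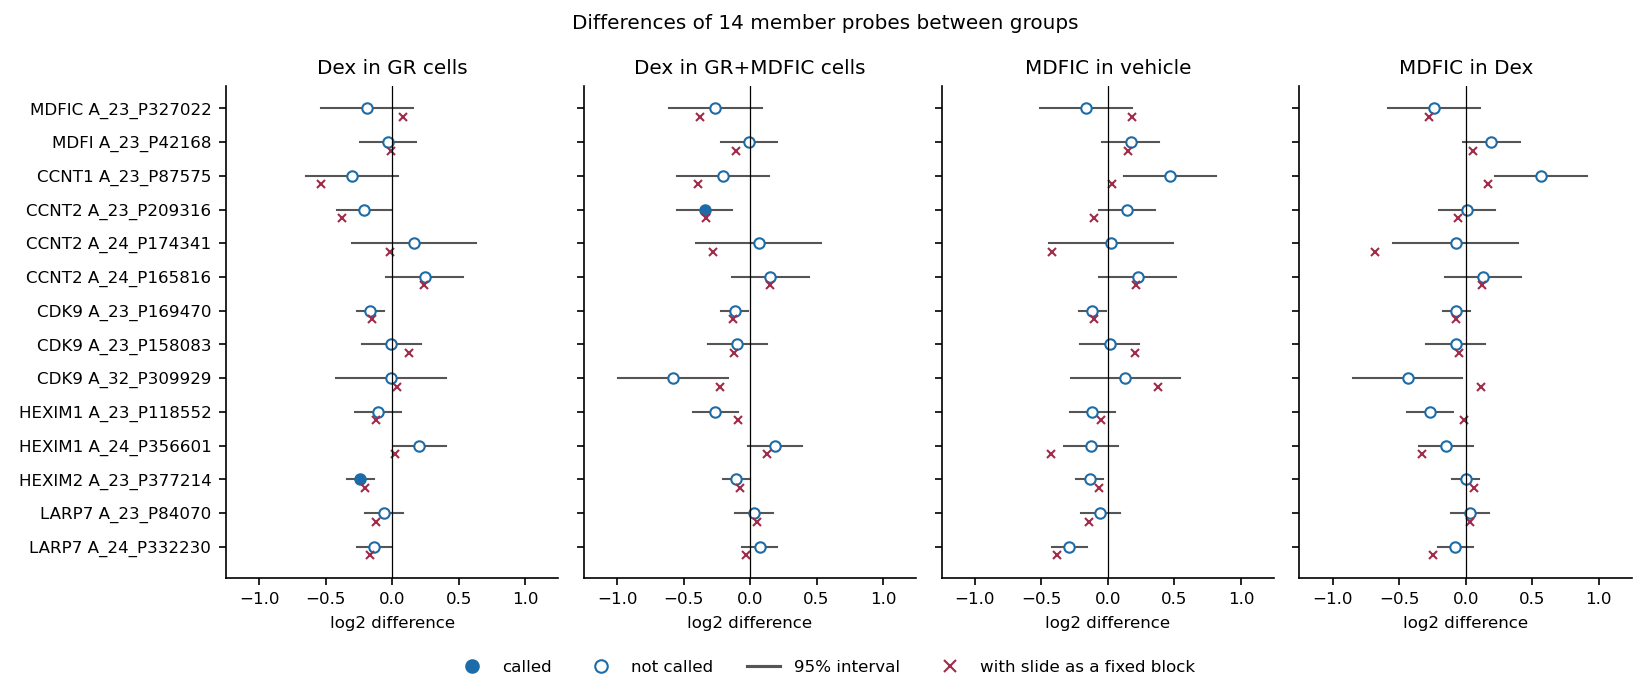
Log2 difference (horizontal axis) of the 14 probes other than MDFIC A_32_P120567 in 4 comparisons, with limma's 95% intervals, filled points where called, and crosses for the value with slide as a fixed block. HEXIM2 with Dex in GR cells (-0.24) and CCNT2 A_23_P209316 with Dex in GR+MDFIC cells (-0.34) are the filled points.

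CDK9 (NM_001261), the kinase itself, was measured by 3 probes and called by none. A_23_P169470 was printed as 10 spots on every array, whose SD within an array was 0.047 to 0.088. It read 3.24, 3.16 and 3.14 in GR vehicle and 3.03, 3.05 and 2.97 in GR Dex, with no overlap. In GR+MDFIC vehicle it read 3.1, 3.02 and 3.07, and in GR+MDFIC Dex 2.90, 2.95 and 2.98, again with every Dex array the lower. Its Dex difference was -0.16 ± 0.05 in GR cells (SE, limma, adjusted p = 0.0691) and -0.12 ± 0.05 in GR+MDFIC cells (SE, limma, adjusted p = 0.123). The SE was 0.046, against a median of 0.088 over all probes. An intensity trend with robust variance was the 1 alternative under which it was called, with Dex in GR cells.

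**Figure D3:**
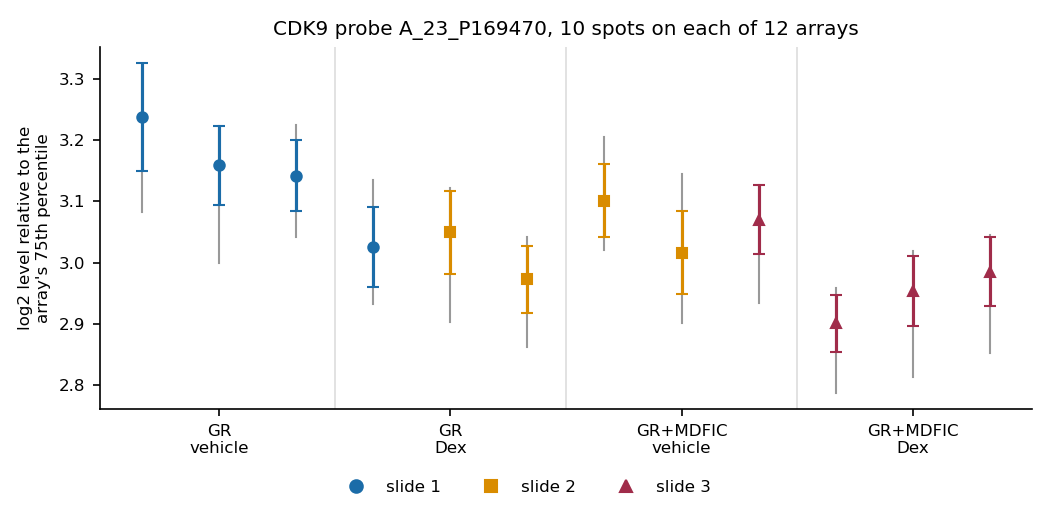
Level of CDK9 probe A_23_P169470 on each of 12 arrays (vertical axis, log2 level, 0 at the array's 75th percentile), as the mean of its 10 spots with their SD as bars and their full range as thin lines, by group (horizontal axis) and slide (symbol). The Dex means lie at 2.97 to 3.05 in GR cells against 3.14 to 3.24 with vehicle, and at 2.90 to 2.98 in GR+MDFIC cells against 3.02 to 3.1.

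The other CDK9 probes gave no call in the fit reported here either. A_23_P158083 had Dex differences of -0.0052 without MDFIC and -0.10 with it, within its spread. A_32_P309929 read -2.46, -3.15 and -3.33 in GR+MDFIC vehicle and -3.48, -3.61 and -3.59 in GR+MDFIC Dex. That is a difference of -0.58 ± 0.18 (SE, limma, adjusted p = 0.0691), and -0.23 within slide 3. One vehicle array stood apart as the highest, and the vehicle array of slide 3 was the lowest. The Dex difference was called in 2 of 25 alternatives, with trend and robust variance and without GR+MDFIC vehicle replicate 3. Against GR Dex, at -3.08, -3.03 and -3.26, the GR+MDFIC Dex arrays lay lower without overlap, by -0.44 (limma, adjusted p = 0.188), and at 0.11 with slide as a block. That difference was called in 2 of 25 alternatives, with only the compared groups fitted and without GR+MDFIC vehicle replicate 1.

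Cyclin T1, the partner to which MDFIC is known to bind, was not called. CCNT1 (NM_001240) read -4.64, -4.63 and -4.84 in GR vehicle, -5.23, -4.76 and -5.01 in GR Dex, -4.46, -4.19 and -4.04 in GR+MDFIC vehicle and -4.20, -4.64 and -4.45 in GR+MDFIC Dex. In vehicle and in Dex every GR+MDFIC array lay above every GR array. The probe was dim, with a processed signal of 15.1 to 41.4 before scaling. Its mean signal before scaling was 33.4 in GR vehicle and 34.0 in GR+MDFIC vehicle. In Dex it was 28.5 without MDFIC and 17.9 with it, so the rise in Dex is seen only after scaling. The MDFIC difference was 0.47 ± 0.15 in vehicle (SE, limma, adjusted p = 0.186) and 0.57 ± 0.15 in Dex (SE, limma, adjusted p = 0.0635). With slide as a block these became 0.027 and 0.17. On slide 2 the GR+MDFIC vehicle arrays lay 0.56 above the GR Dex arrays, a contrast that also holds the hormone. Leaving out GR+MDFIC vehicle replicate 3 was the 1 alternative under which the difference in Dex was called.

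Cyclin T2 fell with Dex in GR+MDFIC cells by 1 of its 3 probes. CCNT2 (NM_058241) probe A_23_P209316 read -2.12, -2.28 and -2.21 with vehicle and -2.66, -2.52 and -2.46 with Dex, with no overlap. The difference was -0.34 ± 0.09 (SE, limma, 1.27-fold lower, adjusted p = 0.0415), and -0.33 within slide 3, where it was not called. In GR cells the same probe read -2.48, -2.28 and -2.28 with vehicle and -2.72, -2.54 and -2.41 with Dex, a difference of -0.21 that was not called (limma, adjusted p = 0.268). The call in GR+MDFIC cells held in 10 of 26 alternatives, although the sign held in all 26. The other 2 probes, A_24_P174341 and A_24_P165816, read -5.38 to -4.50 and -5.77 to -5.19. Both were dim, with processed signals of 11.4 to 41.9 and 9.26 to 25.0 before scaling. Their differences in GR+MDFIC cells were 0.064 and 0.15, the opposite sign, and neither was called. Within slide 3 these were -0.28, where the sign turned, and 0.15.

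HEXIM2 (NM_144608), an inhibitor of P-TEFb on 7SK RNA, fell with Dex in GR cells. HEXIM2 read 1.52, 1.42 and 1.51 in GR vehicle and 1.28, 1.20 and 1.24 in GR Dex, with no overlap, a fall of 0.24 ± 0.05 (SE, limma, 1.18-fold, adjusted p = 0.0119). In GR+MDFIC cells it read 1.34, 1.38 and 1.32 with vehicle and 1.20, 1.29 and 1.24 with Dex, a difference of -0.10 (limma, adjusted p = 0.152). The 2 Dex groups lay at the same mean of 1.24, and the test of the difference between the Dex effects did not pass (0.14, limma, adjusted p = 0.542). In vehicle every GR+MDFIC array lay below every GR array. That MDFIC difference was -0.14 and was not called (limma, adjusted p = 0.195), and it was -0.067 with slide as a block. Within slide 1, against its single Dex array, the difference in GR cells was -0.20 and was not called. It kept its sign in all 27 alternatives and its call in 21. Calls were lost without GR vehicle replicate 1 or 3, without GR Dex replicate 2, with slide as a fixed block, with only the compared groups fitted, and at a threshold of 0.01.

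HEXIM1 (NM_006460), the other inhibitor and a gene known to be induced by hexamethylene bisacetamide, was not called in the fit reported here. A_23_P118552 read 4.39, 4.45 and 4.43 in GR vehicle, 4.30, 4.29 and 4.35 in GR Dex, 4.46, 4.33 and 4.13 in GR+MDFIC vehicle, and 3.96, 4.09 and 4.09 in GR+MDFIC Dex. The Dex arrays were the lower in both kinds of cell, with differences of -0.11 without MDFIC and -0.26 ± 0.08 with it (SE, limma, adjusted p = 0.0528). Within slide 3 the latter was -0.088, where the single vehicle array read 4.13. The MDFIC difference in Dex was -0.27 (limma, adjusted p = 0.0715), and -0.016 under the slide block. This probe was called with Dex in GR+MDFIC cells in 4 of 26 alternatives and with MDFIC in Dex in 5 of 26, among them without GR+MDFIC vehicle replicate 3 in both. The second probe, A_24_P356601, was dimmer, with a processed signal of 49.5 to 161 before scaling. It differed in the opposite direction with Dex, by 0.20 and 0.19, and was not called. With slide as a block these were 0.024 and 0.12. Its MDFIC differences were -0.13 in vehicle and -0.15 in Dex, and -0.43 and -0.33 with slide as a block, and were not called.

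LARP7 (NM_016648), which binds and stabilises 7SK RNA, was not called. A_24_P332230 read 2.09, 2.07 and 2.23 in GR vehicle and 1.77, 1.81 and 1.94 in GR+MDFIC vehicle, with no overlap. That difference of -0.29 ± 0.06 (SE, limma, adjusted p = 0.0632) was -0.38 with slide as a block and was called in 3 of 26 alternatives. In Dex the levels were 1.97, 2.01 and 2.01 without MDFIC and 1.92, 1.91 and 1.92 with it, a difference of -0.08, and of -0.25 with slide as a block. The test of the difference between the Dex effects gave 0.21 and did not pass (limma, adjusted p = 0.518). A_23_P84070 read 2.71 to 2.90 over all 12 arrays, its groups overlapped in every comparison, and the largest of its 4 differences was -0.06.

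**Figure D4:**
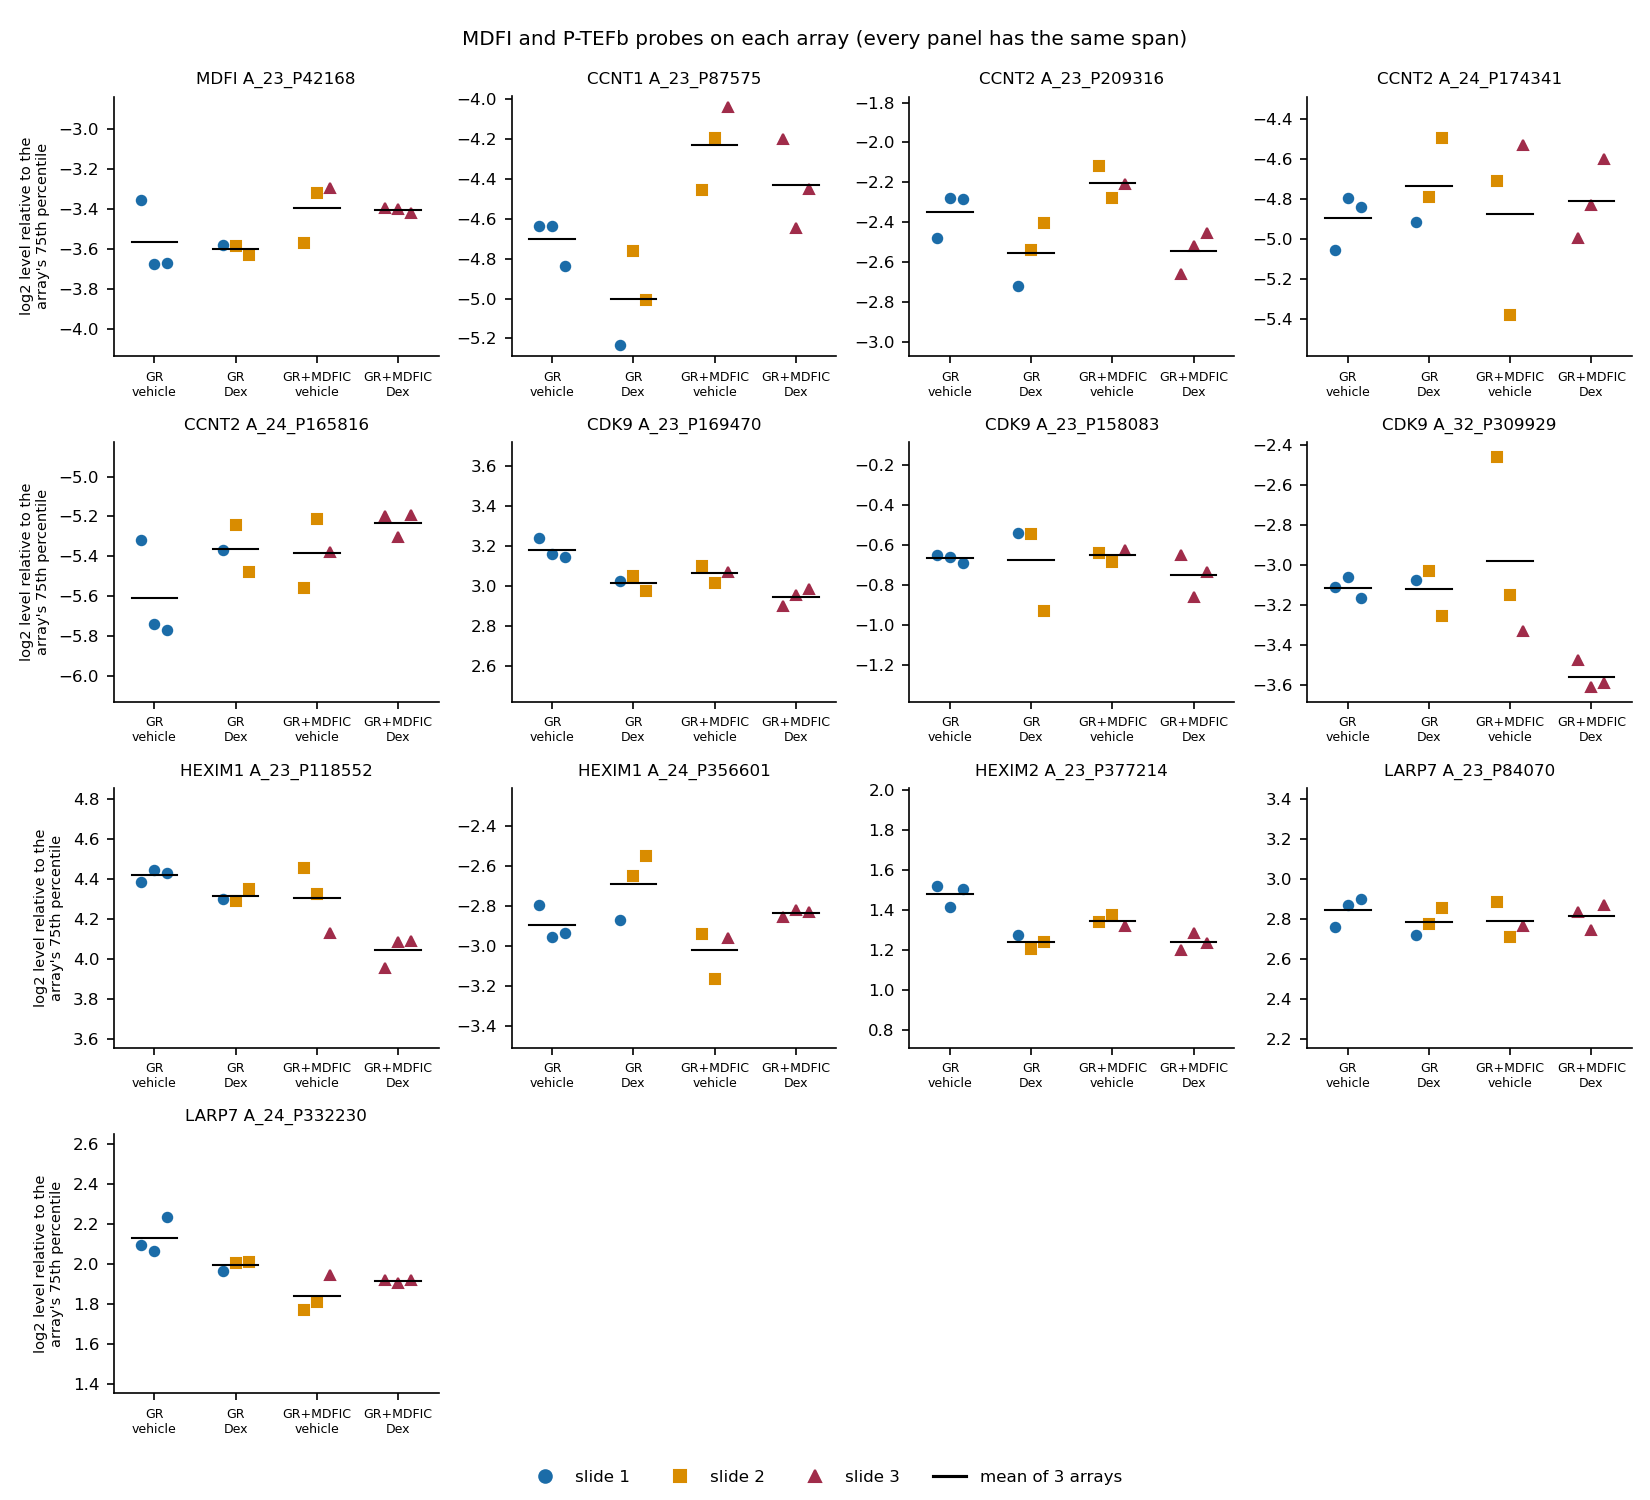
Level of the MDFI probe and the 12 P-TEFb probes on every array (vertical axis, log2 level, 0 at the array's 75th percentile; every panel has the same span) by group (horizontal axis), with symbols for the slide and a line at the mean of 3 arrays. HEXIM2, HEXIM1 A_23_P118552 and CDK9 A_23_P169470 show Dex arrays below vehicle arrays without overlap in both kinds of cell.

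The 4 lists around the complex held 49 genes, of which 48 were on the arrays and 44 passed the filter, each by the probe brightest over all 12 arrays. They covered P-TEFb recruitment and the super elongation complex, pausing and elongation factors, other transcription cyclins and kinases, and proteins known to bind MDFI or MDFIC. With Dex in GR cells 0 were higher and 2 lower, with Dex in GR+MDFIC cells 3 were higher and 4 lower, with MDFIC in vehicle 1 was higher and 0 lower, and with MDFIC in Dex 3 were higher and 0 lower. Over all accessions tested, by the same choice of probe, 6.96%, 13.3%, 0.804% and 5.15% were called in either direction, and 0.0547% in the test of the difference between the Dex effects. With slide as a block the counts were 0 higher and 1 lower, 0 and 2, 1 and 0, and 1 and 0. That block called 3.47%, 3.24%, 0.258% and 0.176% of all probes tested, here not taken as 1 per accession. The choice of probe matters for 1 gene, ELL3: its probe is the brighter only through the GR+MDFIC arrays. With each gene's probe taken as the brightest over the 6 GR arrays, a choice made with the data in view, 0 list genes passed with MDFIC in vehicle and 2 were higher with MDFIC in Dex, and the counts with Dex did not move. The medians of the 44 were -0.04, -0.02, 0.029 and 0.022, and no list gene was called in that last test.

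The super elongation complex carries P-TEFb to paused polymerase. ELL2 (NM_012081), an elongation factor of that complex, rose with Dex in GR+MDFIC cells. Probe A_23_P41645 read 1.60, 1.41 and 1.82 in GR+MDFIC vehicle and 2.19, 2.37 and 2.32 in GR+MDFIC Dex, a difference of 0.68 ± 0.10 (SE, limma, 1.60-fold, adjusted p = 0.00170). Within slide 3 it was 0.47 and was not called. In GR cells it read 1.82, 1.70 and 1.81 with vehicle and 2.08, 2.06 and 2.16 with Dex, a difference of 0.32 that was not called (limma, adjusted p = 0.0826). A second probe, A_23_P58506, rose in both kinds of cell, by 0.36 (limma, adjusted p = 0.00511) and 0.60 (limma, adjusted p = 0.000150). Within slides it gave 0.44 and 0.59 and kept both calls. Another, A_23_P251011, was above background on 0 arrays and was not tested.

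EAF2 (NM_018456), a partner of the ELL factors, fell with Dex in both. It read -0.79, -0.75 and -0.75 in GR vehicle against -1.29, -1.21 and -1.06 in GR Dex, and -0.63, -0.83 and -0.59 in GR+MDFIC vehicle against -1.23, -1.13 and -1.04 in GR+MDFIC Dex. The falls were of 0.43 (limma, adjusted p = 0.0117) and 0.45 (limma, adjusted p = 0.00651) on the log2 scale, and both passed with slide as a block. AFF1 (NM_005935), a scaffold of the complex, fell by 0.38 (limma, adjusted p = 0.00499) and 0.23 (limma, adjusted p = 0.0366) on probe A_23_P169619, and neither fall was called with slide as a block. Its probe A_24_P414332 rose by 0.50 in GR cells (limma, adjusted p = 0.0499), and by 0.79 with slide as a block (limma, adjusted p = 0.0260), so the AFF1 probes went in opposite directions. MLLT3 (0.28) and CTR9 (0.30) rose, and CDK7 (-0.28) and RTF1 (-0.18) fell, with Dex in GR+MDFIC cells, and none of these 4 was called with slide as a block. A second probe of RTF1 (-0.05) and one of MLLT3 (0.68) were not called.

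**Figure D5:**
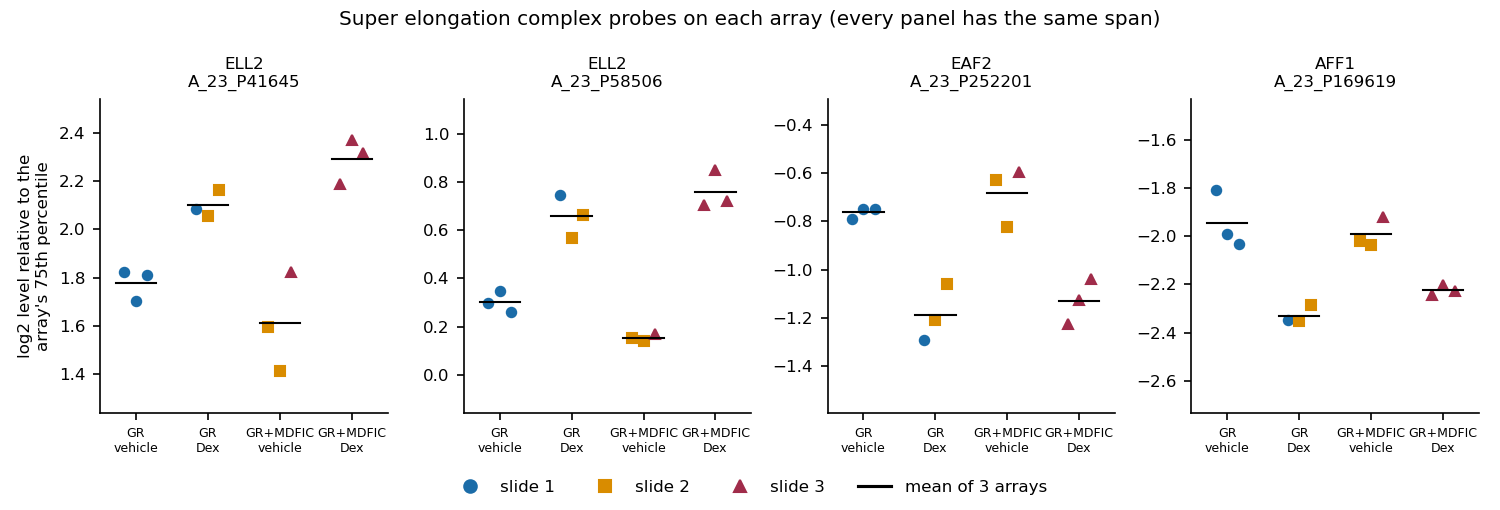
Level of 4 probes of super elongation complex genes on every array (vertical axis, log2 level, 0 at the array's 75th percentile; every panel has the same span) by group (horizontal axis), with symbols for the slide and a line at the mean of 3 arrays. The Dex arrays lie above the vehicle arrays for both ELL2 probes and below them for EAF2 and AFF1 A_23_P169619, in both kinds of cell.

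ELL3 (NM_025165), another factor of the ELL family, was higher in cells with MDFIC by 1 of its 2 probes, the one that this difference itself makes the brighter. Probe A_23_P3237 read -1.97, -1.81 and -1.86 in GR vehicle, -1.51, -1.53 and -1.55 in GR Dex, 0.30, 0.34 and 1.01 in GR+MDFIC vehicle and 0.37, 0.53 and 0.45 in GR+MDFIC Dex. All 6 GR+MDFIC arrays lay above all 6 GR arrays. The MDFIC difference was 2.43 ± 0.16 in vehicle (SE, limma, 5.40-fold, adjusted p = 8.82e-05) and 1.98 in Dex (limma, 3.95-fold, adjusted p = 0.000445), and 2.23 and 1.3 under the slide block. It was called in every alternative run, 27 in vehicle and 26 in Dex. Its other probe, A_24_P47988, is the brighter on the GR arrays. It differed by -0.023 and 0.12, and by 0.20 and 0.14 with slide as a block, and was not called. The 2 probes of ELL3 thus differed from each other, as those of MDFIC did. With Dex in GR+MDFIC cells A_23_P3237 differed by -0.10 and was not called, but within slide 3 by -0.56 (limma, adjusted p = 0.0115), its vehicle array there being the 1.01. POLR2A probe A_24_P99679 (0.31, limma, adjusted p = 0.0440) and MYOD1 (0.64, limma, adjusted p = 0.0189), the myogenic factor that MDFI is known to inhibit, were higher with MDFIC in Dex. With slide as a block they gave 0.10 and 0.43 and were not called. The POLR2A call held in 9 of 26 alternatives and the MYOD1 call in 22 of 26. A second POLR2A probe, A_24_P308128, differed by 0.057 (limma, adjusted p = 0.718), and by 0.28 with slide as a block, and was not called.

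Likeness of pattern was taken for the brightest probe of each called gene, which for MDFIC is A_32_P120567 only through the GR+MDFIC arrays. The transcripts compared were also taken by their brightest probe. Over the 12 arrays the transcripts whose levels followed those of the bright MDFIC probe most closely, among 14593 outside the set, were NM_025165 (ELL3, Pearson r = 0.983), NM_001270601 (0.981) and NM_023944 (0.977). The 12 points share 3 slides and fall into a low and a high block, and over the 6 GR+MDFIC arrays alone ELL3 gave 0.41, NM_001270601 0.91 and NM_023944 -0.56. Over the 6 GR arrays alone these 3 gave -0.36, -0.26 and -0.53. The closest to HEXIM2 were NM_001793 (0.940), NM_032246 (0.935) and NM_005524 (0.934), and to CCNT2 A_23_P209316 they were NM_181531 (0.965), NM_004170 (0.954) and NM_004815 (0.953). Between the brightest probes of the member genes themselves, CDK9 and HEXIM2 went together most closely (r = 0.846). These correlations are descriptions over arrays that share groups and slides.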

How the data were processed

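Total RNA of COS-1 cells was labelled with Cy3 and hybridised to one-colour Agilent arrays, per the labels. The deposited values are intensities on a linear scale, background-subtracted and detrended by Feature Extraction but not normalized between arrays, per the file headers (12.0.0.7, and 12.0.3.1 for slide 3). Deposited flags (other values, 0 or 1) say whether a spot is saturated, an outlier or above background, per the file headers. Log2 of the processed signal was taken, less the 75th percentile of the array's non-control spots. Outlier spots were set missing (42 values among those tested) and spots of a probe averaged. Probes well above background on all 3 arrays of a group, with at least 2 unflagged arrays per group, were tested in limma 3.58.1 (R 4.3.3, with data.table, version 1.17.8) with a group-means model on 12 arrays (8 residual degrees of freedom, 6 with slide as a block), two-sided. Figures were drawn with matplotlib 3.10.9. The fit was tested on simulated data. The number of arrays limits the precision.

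The members and lists were chosen with earlier results of these data known. The text names every member probe, list genes called (the 5 largest where more) and the 3 transcripts most correlated with each called member. Where a list gene has several probes, its brightest stands for it, and the probes of ELL2, ELL3, AFF1, POLR2A, RTF1 and MLLT3 were not all called alike. Symbols of the lists were paired with accessions from general knowledge, with no table to check them. Alternatives were other scalings (normexp, planned for spot means, used spot medians), filters, thresholds, blocks and variance settings, the deposited series table (largest difference 0), and leaving out each array or slide 3. Choosing the probe of a list gene on the GR arrays alone was added after the data were seen. The replicate numbers did not pair the samples (correlation of deviations -0.24 to 0.15 over 18 same-number pairs, 3 over 0.1).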

Additional observations from a re-analysis of the deposited data

How the results depend on the processing

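The members called with Dex in GR cells, 1 in the reported analysis, were 0 with slide as a fixed block, 0 with only the compared groups fitted, 0 at a threshold of 0.01, 2 with an intensity trend and robust variance, and 0 to 1 with 1 array left out. Over all probes these settings called 3.47%, 4.88%, 3.31%, 7.76%, and 4.22% to 7.11%. The 2 with Dex in GR+MDFIC cells were 1 with median scaling, with normexp and quantile scaling, with no filter on dim probes and with slide as a fixed or random block, 0 with only the compared groups and at 0.01, 4 with trend and robust variance, 3 with only probes above background on all 12 arrays, and 1 to 4 with 1 array left out. In that order the shares of all probes were 11.8%, 14.4%, 7.26%, 3.24%, 10.3%, 5.71%, 5.38%, 14.8% and 15.3%. With 1 array left out they were 7.21% to 25%. The 1 with MDFIC in vehicle was 2 with normexp and quantile scaling and with trend and robust variance, and 1 to 2 with 1 array left out. The 1 with MDFIC in Dex was 2 under the same pair, 3 with only the compared groups, and 1 to 3 with 1 array left out. The cause was not tested. The interaction gave 0 member calls in every alternative run, against 0.00991% to 6.87% of all probes. The 1 list gene called with MDFIC in vehicle became 0 with probes chosen on the GR arrays alone, which use the other ELL3 probe. With the replicate block the counts were 1, 2, 1, 1 and 0, unchanged from the fit without it, against 6.41%, 13.3%, 0.444%, 4.02% and 0.0199% of all probes.

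Over all probes, the fit without GR+MDFIC vehicle replicate 3 (slide 3 has no other vehicle array) called the most, which was 25% of them in the Dex comparison of GR+MDFIC cells, 11.8% in the MDFIC comparison under Dex, and 6.87% in the interaction. Slide as a fixed block gave 3.24% and 0.176% for the first and second of these. Without slide 3 no value could be had for comparisons that use GR+MDFIC Dex. No value of a member that was called changed sign in any alternative. The 3 arrays a group, and for the MDFIC comparisons slides that hold 1 arm only, limit what these data can show.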
